A study of Mus musculus with 2 samples.

Results

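Sulfate uptake and the supply of activated sulfate were described through 7 genes, chosen by symbol among the 32285 genes measured: the sulfate transporters Slc13a1, Slc26a1 and Slc26a2, the synthases Papss1 and Papss2, and the Golgi carriers Slc35b2 and Slc35b3. All 7 were found in both deposited matrices. The data were single-nucleus RNA sequencing (10x Genomics Chromium) of frozen mouse kidney. One library came from the remnant kidney after 5/6 nephrectomy, a surgical model of progressive kidney scarring, and the other from a sham-operated kidney. Both groups were male T1+/+ mice that were 11 weeks old at surgery by the series' design text, which does not spell out that genotype, and tissue was taken 4 weeks after surgery. For the model the right kidney was removed and, a week later, the left one was ligated at both poles, so the sampled organ is a remnant. Sham mice had their flanks opened and closed again. How many mice each library holds, and which part of the kidney was sampled, is not given in the sources used here.

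Sulfate is filtered at the glomerulus and taken back in the proximal tubule. Slc13a1 encodes the apical sodium-sulfate cotransporter that brings sulfate into the cell, and Slc26a1 the basolateral anion exchanger through which it leaves towards the blood. Slc26a2 encodes a widely expressed sulfate exchanger, best known in cartilage, where its loss leaves proteoglycans undersulfated. Inside cells, Papss1 and Papss2 encode bifunctional synthases that join sulfate to ATP to make PAPS, the universal sulfate donor. Slc35b2 and Slc35b3 encode the transporters that carry PAPS into the Golgi, where sulfotransferases use it to sulfate chondroitin, dermatan and heparan chains. Cytosolic sulfotransferases use the same donor for small molecules.

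Sequencing gave 28284727 UMIs (unique molecular identifiers, each a counted RNA molecule) over 3299 barcodes after nephrectomy, and 21365116 UMIs over 3084 barcodes after sham surgery, with 2 barcodes in common. After filtering, 3044 nephrectomy and 2836 sham nuclei remained, with medians of 6873.5 and 5135 UMIs. Clustering without the genes of the sulfate lists gave 25 clusters. Names such as proximal tubule below mean nuclei that resemble that type by marker genes. A total of 8 classes were compared, together with cluster 12, which had fibroblast and parietal epithelial markers and stayed unnamed. Proximal tubule nuclei numbered 1119 in the nephrectomy library and 995 in the sham library, and their 6 general markers, among them Lrp2, Cubn and Slc34a1, summed to 9542 and 10968 CPM. CPM is the UMIs of a gene per 1000000 UMIs of its class.

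Each group was 1 library, so no difference has a replicate check and no test was possible. Intervals are 95% intervals for counting error only. A ratio is nephrectomy over sham CPM, and a gene is counted as higher or lower at 1.5-fold or more. Because reads in nuclei can come from introns, UMIs per gene also depend on gene length, so levels are compared within a gene and not between genes.

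The libraries filled the proximal tubule clusters unevenly. Cluster 1 held 525 nephrectomy and 103 sham nuclei, and cluster 9 held 3 nephrectomy and 255 sham nuclei. A shallow cluster 0, led by mitochondrial transcripts, held 403 nephrectomy and 485 sham nuclei and was left out. So was cluster 7, with mural cell markers, whose median depth was 978 UMIs in 132 nephrectomy and 1621.5 UMIs in 158 sham nuclei. Free RNA was put at 69.4% and 86.0% of its UMIs, and Slc13a1 at 566.3 and 646.5 CPM. Summed markers of the late proximal segment S3 were at 1444 CPM in nephrectomy and 2600 CPM in sham proximal tubule nuclei, and those of the early segment S1 at 6412 and 4830 CPM. Injury markers summed to 174.3 and 146.9 CPM there. The part of this make-up in the class values was not tested, and values within clusters are given beside them.

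Slc13a1 (ENSMUSG00000029700; mm10 chromosome 6, 24088283 to 24168092, minus strand), the apical entry step, was the member with the most different level. In proximal tubule nuclei it reached 46457 UMIs or 3444 CPM (3412 to 3475) in the nephrectomy library, against 14055 UMIs or 1304 CPM (1282 to 1325) in the sham library. The ratio was 2.64 (2.59 to 2.69). Of the 7 members, Slc13a1 was the only one at least 1.5 times higher in this class, where 12.1% of all 14679 genes with at least 20 UMIs were. The nephrectomy library therefore held the higher Slc13a1 level, by a distance far beyond counting error.

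The higher Slc13a1 level was spread over the nuclei. With each nucleus thinned to 1000 UMIs to remove the gap in depth, 75.9% of nephrectomy proximal tubule nuclei (73.3 to 78.4) and 57.9% of sham nuclei (54.7 to 61.0) still had a Slc13a1 UMI. Without thinning the shares were 94.6% and 86.7%. The median thinned nucleus had 2 UMIs in the nephrectomy library and 1 in the sham library, and the 90th percentile was 8 and 3. The nephrectomy nuclei thus had more Slc13a1 at the median and at the upper end, as the plot of UMIs per nucleus shows.

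**Figure D1:**
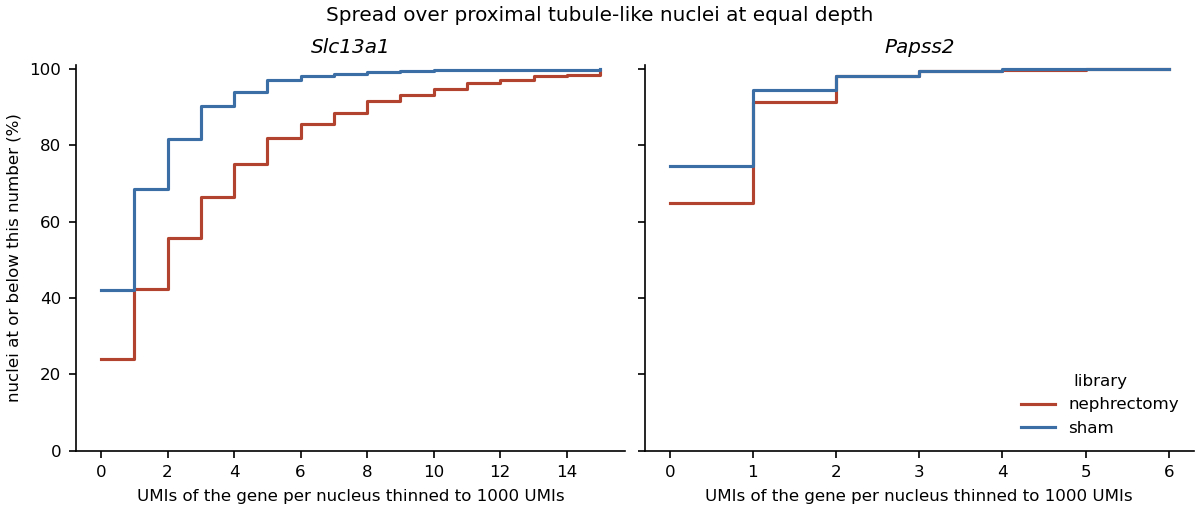
Cumulative share of proximal tubule-like nuclei (y axis, percent) with at most the number of Slc13a1 (left) or Papss2 (right) UMIs on the x axis, each nucleus thinned to 1000 UMIs, for the nephrectomy (red) and sham (blue) library. The nephrectomy curve lies below the sham curve for Slc13a1, with 24.1% against 42.1% of nuclei at 0.

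Within each cluster that held at least 50 nuclei of both libraries, Slc13a1 was also higher after nephrectomy. In cluster 1, whose leading genes included the fatty acid hydroxylase gene Cyp4a14, it reached 4247 CPM in nephrectomy and 1556 CPM in sham nuclei (ratio 2.73, 2.60 to 2.86). Slc13a1 was itself among the 10 leading genes of that cluster, although it was kept out of the clustering. Leading genes were ranked over both libraries together, and most nuclei of this cluster were nephrectomy nuclei. In sham nuclei alone Slc13a1 was not higher there than in cluster 10. In S1-like cluster 2 the levels were 3656 and 1549 CPM (2.36, 2.28 to 2.44), and in cluster 10 they were 3313 and 1696 CPM (1.95, 1.83 to 2.08). The ratios of clusters 1, 2 and 10 were all over 1.5.

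The S3-like cluster 5 stood apart in level and in ratio. There Slc13a1 was at 469.2 CPM in nephrectomy and 349.4 CPM in sham nuclei, with a ratio of 1.34 (1.22 to 1.48). The interval lies below that of every other shared cluster. A small cluster with injury markers such as Vcam1 held 14 nephrectomy nuclei and no sham nucleus, and its Slc13a1 level was 2428 CPM. Over the class without clusters 1 and 9, the ratio was 2.21.

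**Figure D2:**
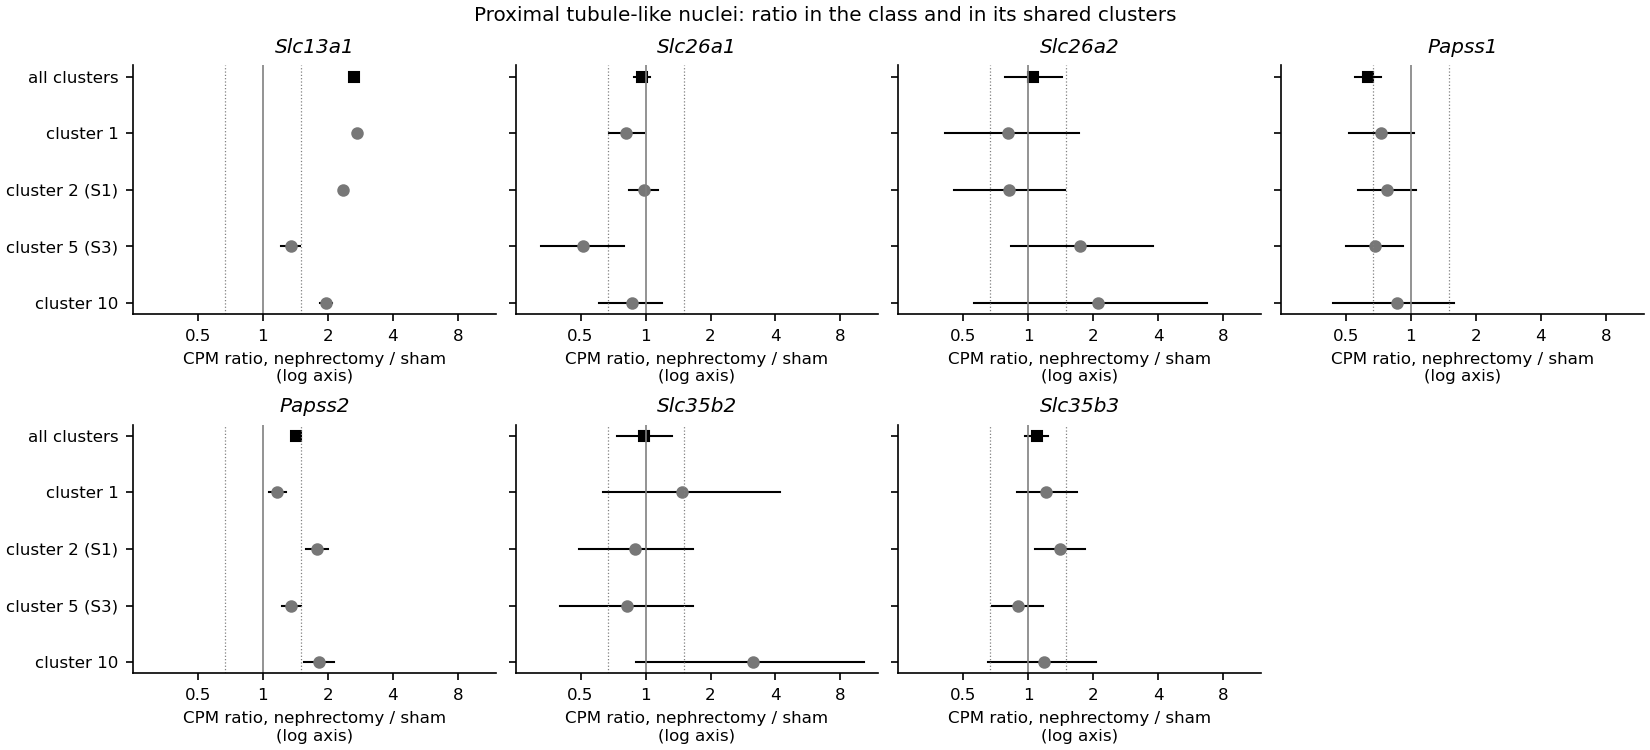
CPM ratio of each gene, nephrectomy over sham (log axis), in proximal tubule-like nuclei (squares) and in the 4 clusters with at least 50 nuclei of each library (circles), with 95% counting intervals. The solid line is a ratio of 1 and the dotted lines are 1.5-fold either way; Slc13a1 lies to the right of 1 in all 4 clusters, from 1.34 to 2.73.

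Outside the proximal tubule, Slc13a1 UMIs were below the free RNA estimate. Free RNA, estimated from markers of other classes, would have left more Slc13a1 UMIs than were counted in each of the 7 other classes and in cluster 12. The estimate thus ran high for this gene, and it cannot show that a low Slc13a1 level is absent. In thick ascending limb nuclei 203 UMIs were counted against 530.6 from free RNA in the nephrectomy library, and 73 against 213.5 in the sham library. Blood endothelium should lack the gene. In it, 33.8% of nephrectomy and 11.4% of sham nuclei had a Slc13a1 UMI, at median depths of 3156.5 and 2742 UMIs. These shares are read as background.

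Intercalated nuclei gave the widest ratio, with 125 UMIs in 89 nephrectomy nuclei and 5 UMIs in 64 sham nuclei (11.7, 4.87 to 36.6). Free RNA made up an estimated 18.6% of UMIs in those nephrectomy nuclei and 8.85% in the sham nuclei, and would have given 318 and 29.0 Slc13a1 UMIs. The ratio was 1.04 when doublets were kept. Thus no Slc13a1 level of intercalated nuclei could be told from background.

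Slc26a1 (ENSMUSG00000046959; chromosome 5, 108669878 to 108675569, minus strand), the basolateral exit step, did not share the difference. Proximal tubule nuclei held 1128 UMIs or 83.6 CPM (78.8 to 88.6) in the nephrectomy library and 935 UMIs or 86.7 CPM (81.2 to 92.5) in the sham library, a ratio of 0.964 (0.883 to 1.05). The interval holds 1 and lies within the 1.5-fold bounds. At equal depth 7.36% and 8.10% of nuclei had a Slc26a1 UMI. Entry and exit genes of the same cells thus had ratios whose intervals lie far apart.

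Most Slc26a1 message was also in the proximal tubule. That class gave 89.1% of its UMIs in the nephrectomy library and 87.3% in the sham library, and each other class had at most 10.5 CPM. Within the proximal tubule it was low in S3-like cluster 5, at 15.9 CPM in nephrectomy and 30.8 CPM in sham nuclei (ratio 0.515, 0.327 to 0.796). In S1-like cluster 2 it was level, at 99.6 and 101.4 CPM, and in cluster 1 it was at 94.96 and 117 CPM (0.811, 0.674 to 0.982). No shared cluster had a ratio above 1. Slc26a1 lies within Idua, a lysosomal enzyme gene on the opposite strand, which had 182 UMIs in the nephrectomy and 138 UMIs in the sham library. Whether counting used strand is not given in the sources used here, so reads of the pair cannot be told apart with certainty.

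Slc26a2 (ENSMUSG00000034320; chromosome 18, 61192919 to 61211612, minus strand) had another site. Its level was highest in principal cells of the collecting duct, with 31 UMIs or 46.8 CPM (31.8 to 66.4) in the nephrectomy library and 18 UMIs or 43.3 CPM (25.6 to 68.4) in the sham library. The remaining classes had 1.99 to 11.3 CPM in nephrectomy nuclei and 3.81 to 10.8 CPM in sham nuclei. In the nephrectomy library the interval of principal cells lies above that of every other class, and in the sham library it overlaps that of cluster 12, which rested on 4 UMIs. Free RNA would have given 0.824 and 0.438 Slc26a2 UMIs in principal cells.

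Principal cells were 2.68% of the nephrectomy UMIs and 2.22% of the sham UMIs but gave 15.1% and 11.2% of those of Slc26a2. The libraries did not differ detectably in this class (ratio 1.08, 0.586 to 2.05). In the proximal tubule Slc26a2 was sparse, at 7.71 CPM (104 UMIs) and 7.33 CPM (79 UMIs), with a ratio of 1.05 (0.778 to 1.43). After thinning only 3 nephrectomy and 7 sham UMIs were left there.

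**Figure D3:**
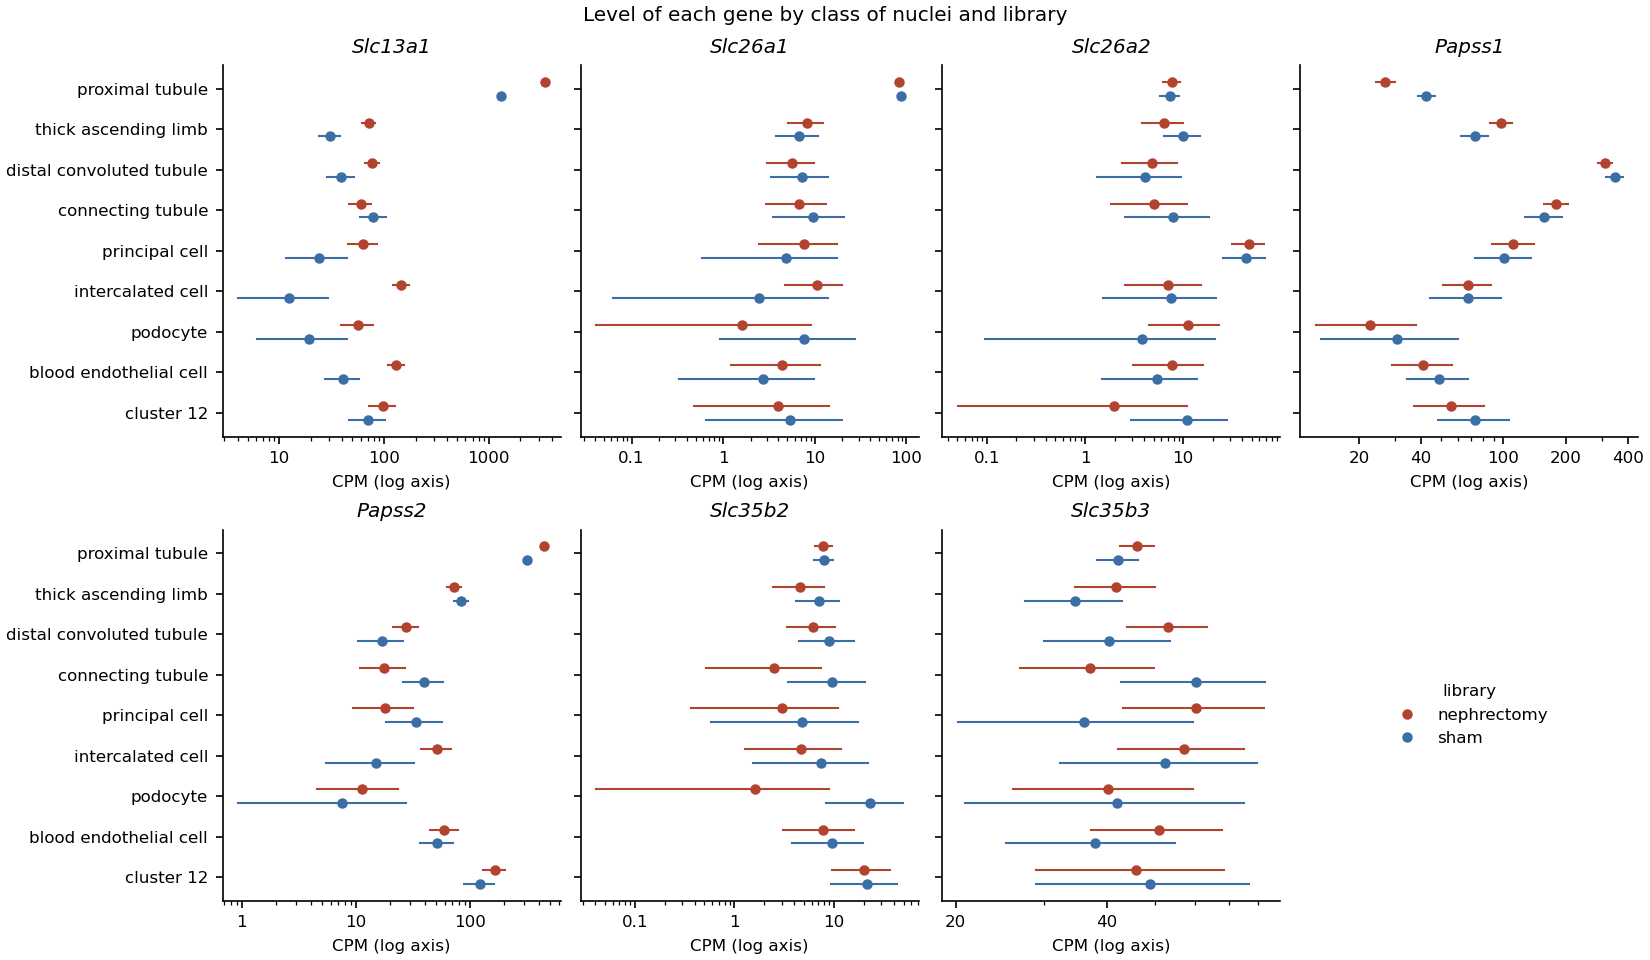
Level of each of the 7 genes in CPM (log axis) by class of nuclei, with the nephrectomy library (red) drawn above the sham library (blue) and 95% Poisson intervals. Slc13a1, Slc26a1 and Papss2 peak in the proximal tubule, Slc26a2 in principal cells and Papss1 in the distal convoluted tubule, while Slc35b3 is even over the classes.

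The PAPS synthases divided the nephron between them. Papss2 (ENSMUSG00000024899; chromosome 19, 32595790 to 32667187, plus strand) was the form of the proximal tubule, and Papss1 (ENSMUSG00000028032; chromosome 3, 131564768 to 131643671, plus strand) that of the distal nephron. Their promoter windows are shown because these paralogs peak in different classes. Each is the 250 bases before the RefSeq transcription start on GRCm38.p6 (plus strand, 5′ to 3′), chr3:131564518-131564767 for Papss1 and chr19:32595465-32595714 for Papss2, with GC boxes (GGGCGG on either strand) in capitals.
Papss1: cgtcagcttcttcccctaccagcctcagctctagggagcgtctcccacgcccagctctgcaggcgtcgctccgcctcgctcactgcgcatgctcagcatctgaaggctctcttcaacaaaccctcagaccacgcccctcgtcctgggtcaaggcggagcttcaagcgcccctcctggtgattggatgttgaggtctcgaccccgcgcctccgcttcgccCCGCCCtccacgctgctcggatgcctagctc
Papss2: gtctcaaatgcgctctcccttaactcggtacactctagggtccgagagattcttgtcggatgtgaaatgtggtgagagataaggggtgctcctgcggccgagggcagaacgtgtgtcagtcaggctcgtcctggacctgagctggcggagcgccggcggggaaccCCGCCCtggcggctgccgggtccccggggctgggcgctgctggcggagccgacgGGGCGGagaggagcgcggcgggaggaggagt

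Both windows are rich in G and C, at 65.2% for Papss1 and 67.6% for Papss2, where the median of 27025 promoter windows was 52%. They hold 20 and 24 CpG dinucleotides, against a median of 6. Papss1 has 1 GC box and Papss2 has 2, and in both a box begins 31 bases before the start. A GC box occurs in 32.9% of all windows. Neither holds TATAAA on either strand, which 13% of windows do. A match is a string of letters, and no binding was measured.

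Papss2 was higher in the nephrectomy proximal tubule, though by less than 1.5-fold. It reached 6042 UMIs or 447.9 CPM (436.6 to 459.3) in the nephrectomy library and 3410 UMIs or 316.3 CPM (305.7 to 327.1) in the sham library, a ratio of 1.42 (1.36 to 1.48). At equal depth 35.0% of nephrectomy nuclei (32.2 to 37.9) and 25.3% of sham nuclei (22.6 to 28.1) had a Papss2 UMI. The difference exceeds counting error, and was in the same direction in every shared cluster.

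By cluster, Papss2 was at 255.4 CPM in nephrectomy and 143.1 CPM in sham nuclei of S1-like cluster 2 (ratio 1.79, 1.59 to 2.01) and at 504.3 and 277.1 CPM in cluster 10 (1.82, 1.54 to 2.14). In S3-like cluster 5 the levels were 438 and 323.7 CPM (1.35, 1.22 to 1.496). Cluster 1, where Papss2 was already at 490 CPM in sham nuclei, had 570.9 CPM in nephrectomy nuclei and the smallest ratio (1.17, 1.07 to 1.27). The order of the clusters by ratio therefore differed from that of Slc13a1, whose ratio was largest in cluster 1. The nuclei with injury markers had 125.3 CPM of Papss2.

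Papss1 was the only member at least 1.5 times lower in the proximal tubule, a direction that 11.3% of all genes took. It had 362 UMIs or 26.8 CPM (24.1 to 29.8) in the nephrectomy library and 457 UMIs or 42.4 CPM (38.6 to 46.4) in the sham library, a ratio of 0.633 (0.550 to 0.728). Part of the sham UMIs, 154 of 457, came from cluster 9, which had 54.5 CPM and almost no nephrectomy nuclei. Within the 4 shared clusters the ratios were 0.679 to 0.865, all below 1, and only S3-like cluster 5 had an interval without 1 (0.679, 0.499 to 0.918). Over these clusters with equal weight the ratio was 0.751, and without clusters 1 and 9 it was 0.716, so that the gene was then no longer 1.5-fold lower.

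Accordingly, proximal tubule nuclei had a larger share of Papss2 in the nephrectomy library. Papss2 gave 94.4% of the UMIs of both synthases in nephrectomy nuclei (93.7 to 94.9) and 88.2% in sham nuclei (87.1 to 89.2). The genes span 71398 bases for Papss2 and 78904 bases for Papss1, and the share is read between libraries and classes, not as a molar ratio.

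Distal convoluted tubule nuclei, which reabsorb sodium chloride and magnesium, had the highest Papss1 level in both libraries. It was 310.8 CPM (288.3 to 334.5, 710 UMIs) in the nephrectomy library and 345 CPM (313.0 to 379.3, 426 UMIs) in the sham library, a ratio of 0.901 (0.798 to 1.02). Papss2 gave 8.15% and 4.70% of synthase UMIs there. Its 63 nephrectomy and 21 sham UMIs were close to the 62.8 and 28.3 that free RNA would give. Slc13a1 was only 0.394 and 0.456 times its own free RNA estimate there, so the estimate cannot show that Papss2 is absent. Most synthase UMIs of these nuclei were Papss1.

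Papss1 was lower in the segments that follow. Connecting tubule nuclei had 180.7 CPM in the nephrectomy library and 157 CPM in the sham library (ratio 1.15, 0.903 to 1.48), and principal cells had 74 and 42 UMIs (1.11, 0.747 to 1.66). Intercalated cells had 67.4 and 67.1 CPM. In the nephrectomy library the intervals separate distal convoluted tubule, connecting tubule and principal cells in turn, while in the sham library those of connecting tubule and principal cells overlap. Connecting tubule markers summed to 41381 CPM in nephrectomy and 41004 CPM in sham distal convoluted tubule nuclei, so these classes share markers. Distal convoluted tubule markers were at 13734 and 14039 CPM there, and at 622 and 526.5 CPM in connecting tubule nuclei. Podocytes had the lowest Papss1 level, with 22.6 and 30.5 CPM from 14 and 8 UMIs, and overlapped with the proximal tubule.

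Thick ascending limb nuclei, which dilute the urine and make uromodulin, carried both synthases. Papss1 was at 97.3 CPM (275 UMIs) in the nephrectomy library and 72.9 CPM (175 UMIs) in the sham library, a ratio of 1.33 (1.10 to 1.62). After thinning the ratio was 0.974, from 30 nephrectomy and 32 sham UMIs, too few to settle its direction. With equal weight per nucleus the ratio was 1.14. Papss2 was at 72.2 and 84.1 CPM (0.858, 0.703 to 1.05), and its ratio was 1.29 after thinning, from 31 and 25 UMIs. The clusters of the limb differed in direction for Papss2, with 75.9 CPM in nephrectomy and 104.8 CPM in sham nuclei of cluster 3 (0.724, 0.573 to 0.914) and 65.7 and 42.6 CPM in cluster 8 (1.54, 1.01 to 2.40). Within the limb Papss1 was higher in cluster 8, with 144.9 CPM in nephrectomy and 106.6 CPM in sham nuclei, than in cluster 3, with 69.8 and 56.1 CPM.

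Among the compared classes, cluster 12 had the highest Papss2 level outside the proximal tubule. It was at 165 CPM (131.4 to 204.5) in the nephrectomy library and 121.8 CPM (88.9 to 163.0) in the sham library. In the sham library its interval overlaps that of thick ascending limb. The left-out clusters 0 and 7 had higher Papss2 levels in both libraries. The ratio was 1.35 (0.931 to 1.99), and the 83 and 45 UMIs exceeded the 28.9 and 15.9 expected of free RNA. Papss2 was 74.8% and 62.5% of synthase UMIs in these nuclei. Fibroblast markers summed to 1457 CPM in the nephrectomy and 1229 CPM in the sham nuclei of the cluster. In blood endothelial nuclei there were 54 and 38 Papss2 UMIs, where free RNA would give 42.7 and 23.3.

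**Figure D4:**
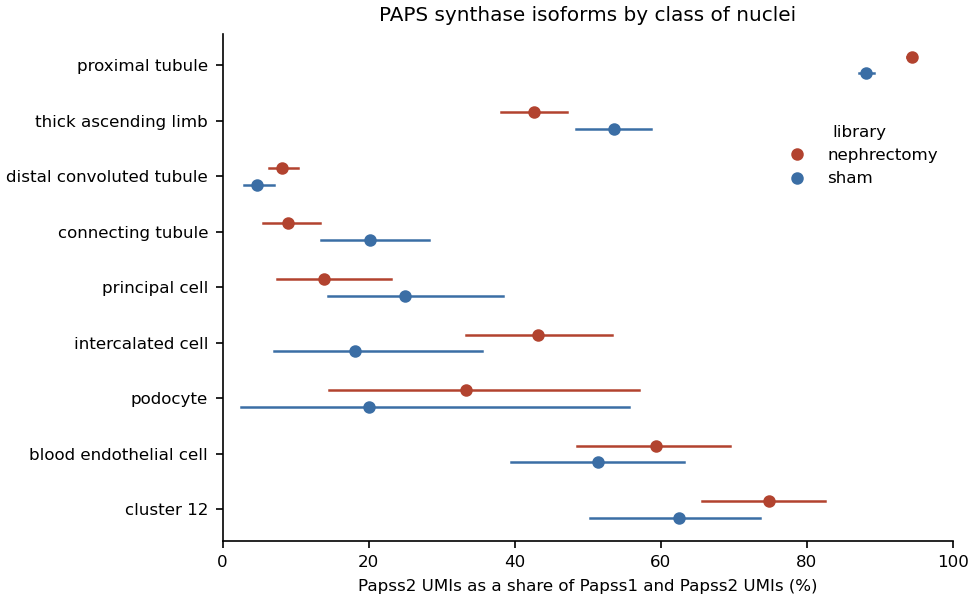
Papss2 UMIs as a percentage of the UMIs of Papss1 and Papss2 (x axis) by class of nuclei, nephrectomy library (red) above sham library (blue), with 95% Clopper-Pearson intervals. The share is 94.4% and 88.2% in the proximal tubule and 8.15% and 4.70% in the distal convoluted tubule.

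In the proximal tubule neither Golgi PAPS transporter had a ratio whose interval left out 1. Slc35b2 (ENSMUSG00000037089; chromosome 17, 45563874 to 45567671, plus strand) was sparse, with 106 UMIs or 7.86 CPM in the nephrectomy and 86 UMIs or 7.98 CPM in the sham proximal tubule (ratio 0.985, 0.734 to 1.32). Among the compared classes of the nephrectomy library its level was highest in cluster 12, at 19.9 CPM from 10 UMIs. The sham nuclei of that cluster had 21.7 CPM from 8 UMIs. Sham podocytes had 22.9 CPM from 6 UMIs and nephrectomy podocytes 1.61 CPM from 1 UMI (ratio 0.0705, 0.00153 to 0.581). These are small counts, and in the sham library each class overlaps its neighbour in the order of levels.

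Slc35b3 (ENSMUSG00000021432; chromosome 13, 38932136 to 38960875, minus strand) was the most evenly expressed member. It lay between 37.0 CPM in connecting tubule and 60.4 CPM in principal cells of the nephrectomy library, and between 34.6 CPM in thick ascending limb and 60.3 CPM in connecting tubule of the sham library. Neighbouring intervals overlap throughout. In the proximal tubule it had 621 UMIs or 46.0 CPM and 454 UMIs or 42.1 CPM, a ratio of 1.09 (0.967 to 1.24). Connecting tubule nuclei had 44 and 38 UMIs (0.614, 0.388 to 0.973), and principal cells 40 and 15 UMIs (1.67, 0.905 to 3.26). The gene overlaps an antisense transcript, 5033403F01Rik, which had 70 UMIs in the nephrectomy and 54 UMIs in the sham library.

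Over all nuclei Slc13a1, Slc26a1 and Papss2 were dominated by the proximal tubule, and the other members were not. That class gave 86.9% of Papss2 UMIs in the nephrectomy library and 82.9% in the sham library. For Papss1 it gave 19.6% and 32.7%. Slc13a1 was at 1989 CPM in the nephrectomy and 814.9 CPM in the sham library (ratio 2.44, 2.40 to 2.49), and Papss2 at 281 and 219.4 CPM (1.28, 1.23 to 1.33). Papss1 was level, at 74.8 and 74.4 CPM (1.00, 0.937 to 1.08), although the class ratios ran from 0.633 in proximal tubule to 1.33 in thick ascending limb. The distal convoluted tubule, where Papss1 is highest, made up 9.23% of nephrectomy and 6.58% of sham UMIs. Slc26a1 had a ratio of 0.896 (0.825 to 0.973), Slc26a2 of 0.971, Slc35b2 of 0.830 and Slc35b3 of 1.13 (1.03 to 1.24). Thus 1 of 7 members was at least 1.5 times higher, where 9.41% of 17362 genes were, and no member was lower, where 10.7% were.

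In the other classes the 1.5-fold threshold was applied to the members with at least 20 UMIs. In thick ascending limb 1 of 7 was higher (Slc13a1, against 9.56% of all genes) and 2 were lower (Slc26a2 and Slc35b2, against 12.2%). Those lower calls rested on 18 nephrectomy and 24 sham UMIs and on 13 and 17 UMIs, with intervals that hold 1. In distal convoluted tubule 2 of 6 were higher (Slc13a1 and Papss2, against 9.96%), and in intercalated cells 2 of 4 (the same pair, against 15.8%). In blood endothelium 1 of 4 was higher (Slc13a1, against 9.37%). In these classes Slc13a1 was below the free RNA level, and Papss2 of the distal convoluted tubule and of intercalated cells was 0.741 to 1.00 times that level. The free RNA estimate ran high for Slc13a1 in every compared class outside the proximal tubule, so it cannot show that a gene is absent. Connecting tubule had 2 of 4 lower (Papss2 and Slc35b3, against 16.5%), and principal cells 2 of 5 higher (Slc13a1 and Slc35b3, against 11.6%) and 1 lower (Papss2, against 15%). Podocytes had 1 of 3 higher (Slc13a1, against 17.1%). In principal cells and podocytes, too, Slc13a1 was below the free RNA level. Papss2 of connecting tubule and principal cells was 0.429 to 1.28 times that level. The ratios of Papss2 in distal convoluted tubule and of Papss2 and Slc35b3 in principal cells had intervals that hold 1. Cluster 12 had none past the threshold in either direction, where 13.5% of genes were higher and 14.4% lower.

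Patterns across classes were compared over 18 values, the 9 classes and clusters in each library, on the scale of log2(CPM + 1). The values share libraries and depth, so the correlations are descriptive. Among 10333 candidates the gene most like Slc13a1 was G6pc, of gluconeogenesis (Pearson r 0.978), followed by Nox4 (0.954) and Gldc (0.950), which encode a NADPH oxidase and a glycine-cleaving enzyme. Slc26a1 was most like the amino acid transporter gene Slc6a20b (0.937), then Neu1 (0.935) and Slc6a15 (0.931). Papss2 was most like Tmem56 (0.920), the glutamate transporter gene Slc1a1 (0.916) and Nhs (0.915), and Papss1 like Tmem52b (0.920), Tdrd3 (0.909) and Yap1 (0.900). These genes have a level pattern like that of the member, and ranks were not compared. Outside the proximal tubule Slc13a1 was within free RNA, so its matches cannot be told from a shared proximal tubule peak.

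The less confined members had weaker matches. Slc26a2 was most like Rrp1b (0.866), Ergic2 (0.831) and Kcnh5 (0.831). For Slc35b2 the nearest were Phf3 (0.820), Snx17 (0.813) and Hsd11b1 (0.798), and for Slc35b3 Taf1 (0.786), Zbtb1 (0.695) and Dpy19l4 (0.692). Among the members themselves, Slc13a1 correlated with Slc26a1 (0.853) and Papss2 (0.777), while Papss1 and Papss2 had r = -0.29. The correlations of Slc13a1 cannot be told from the proximal tubule peak that it shares with Slc26a1 and Papss2.

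Other genes of the sulfate pathway were read from fixed lists in the proximal tubule, where all genes had a median log2 ratio of 0.03 and the 7 members one of 0.07. Of all genes with at least 20 UMIs in this class, 12.1% were higher and 11.3% lower. Of 12 related anion transporters, 7 had at least 20 UMIs, of which 1 was higher, 1 lower and 5 between (median log2 ratio 0.23). Slc26a6, an apical anion exchanger, was at 3.34 CPM in nephrectomy and 2.04 CPM in sham nuclei (1.63, 0.961 to 2.86), and Slc26a8, an anion transporter known from sperm, at 3.71 and 2.69 CPM (1.38, 0.855 to 2.26). The citrate transporter gene Slc13a5 was at 3.34 and 5.94 CPM (0.562, 0.375 to 0.836). Slc13a3, the basolateral dicarboxylate transporter gene, was at 290.1 and 278.5 CPM (1.04, 0.993 to 1.09). The ratio of Slc13a1 lies above the intervals of Slc26a8, Slc13a3 and Slc13a5, while that of the sparse Slc26a6 holds it.

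Sulfate is also made within the cell by oxidation of cysteine. Of 11 genes of sulfur amino acid oxidation, all measured, 1 was higher, 2 were lower and 8 lay between (median log2 ratio -0.03). Over all genes of the class 12.1% were higher and 11.3% lower. Cdo1, the cysteine dioxygenase gene that commits cysteine to oxidation, was at 73.9 CPM in nephrectomy and 44.8 CPM in sham nuclei (1.65, 1.48 to 1.84). Suox, which encodes the sulfite oxidase of the last step, was at 12.2 and 8.16 CPM, just under the threshold (1.499, 1.15 to 1.96). Csad, whose product diverts the oxidized cysteine to taurine, was at 129.1 and 235.3 CPM (0.549, 0.516 to 0.583), and Cbs, of the transsulfuration step, at 45.4 and 69.6 CPM (0.652, 0.585 to 0.727). The list as a whole had no common direction. No gene was 1.5-fold lower over the shared clusters or without clusters 1 and 9, and the count of higher genes was 0 to 2 over the alternatives.

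On the demand side, 6 of 8 chondroitin and dermatan sulfotransferase genes were measured, with 1 higher, 2 lower and 3 between (median log2 ratio -0.39). The shares over all genes, for each list here, were 12.1% higher and 11.3% lower. The lower genes were the 4-O-sulfotransferase gene Chst11, at 85.0 CPM in nephrectomy and 210.3 CPM in sham nuclei (0.404, 0.376 to 0.434), and the 6-O-sulfotransferase gene Chst7, at 10.2 and 22.3 CPM (0.456, 0.367 to 0.565). Ust, the uronyl 2-O-sulfotransferase gene, was higher with 31 UMIs against 6 (4.13, 1.70 to 12.1), and Chst13 had 13 and 12 UMIs (0.866). Heparan sulfotransferases had 8 of 15 genes measured, with 1 higher, 1 lower and 6 between (median 0.19). Those past the threshold were Hs6st3 (1.87, 1.22 to 2.93) and Hs6st2 (0.575, 0.448 to 0.737), both 6-O-sulfotransferase genes, while Ndst2 (1.36) and Hs3st1 (0.932) lay between. The higher count was 0 to 2 over the alternatives, and the lower count was 0 over the shared clusters. Of 13 other Golgi sulfotransferases 6 were measured and all lay between (median -0.01), with Tpst1 (1.199) and Gal3st1 (1.14) at the upper end and Gal3st4 (0.799) and Chst9 (0.676) at the lower end.

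Cytosolic sulfotransferases, which use PAPS outside the Golgi, had 4 of 15 genes measured, none higher, 1 lower and 3 between (median log2 ratio 0.37). Among all genes 12.1% were higher and 11.3% lower. Sult1d1 was abundant, at 532.2 CPM in nephrectomy and 362.4 CPM in sham nuclei (1.47, 1.41 to 1.53), close in ratio to Papss2. Sult1b1 (1.35) and Sult1a1 (1.24) had intervals that hold 1, and Sult1c2 was the lower gene, at 68.0 and 108.3 CPM (0.627, 0.575 to 0.685), though no gene was 1.5-fold lower over the shared clusters or after thinning. The PAP phosphatases, which clear the by-product of sulfation, both lay between: Bpnt1 at 0.822 (0.738 to 0.915) and Impad1 at 1.01 (0.866 to 1.17). Among 14 sulfatases and activators 11 were measured and all lay between (median 0.08), from 0.752 for Sgsh and 0.880 for Arsb to 1.33 for Arsa and 1.39 for Arsg. The log2 ratio of Slc13a1, 1.40, was exceeded among all these genes only by that of the sparse Ust.

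**Figure D5:**
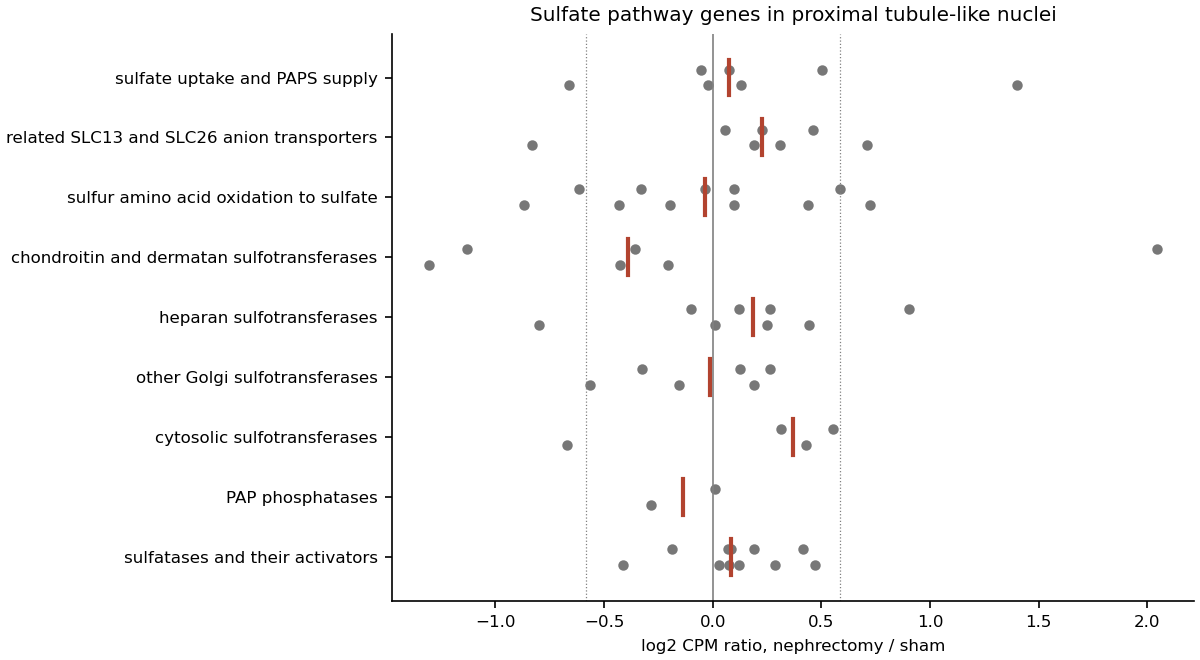
log2 CPM ratio, nephrectomy over sham, in proximal tubule-like nuclei for each gene with at least 20 UMIs (grey points) of the 9 sulfate lists, with list medians as red bars and 1.5-fold as dotted lines. The medians run from -0.39 for chondroitin and dermatan sulfotransferases to 0.37 for cytosolic sulfotransferases.

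Over all nuclei 9.41% of all genes with at least 20 UMIs were higher and 10.7% lower. There the related transporters had 2 higher and 1 lower of 9 measured genes (median log2 ratio 0.16). The ratios were 1.91 for Slc26a7, 1.61 for Slc26a8, 0.861 for Slc13a4 and 0.546 for Slc13a5. Sulfur amino acid oxidation had none higher and 2 lower of 11 (-0.20), with Cdo1 at 1.39, Sqor at 1.11, Cbs at 0.573 and Csad at 0.550. Chondroitin and dermatan sulfotransferases had none higher and 3 lower of 8 (-0.35): Ust was at 1.25, Chst15 at 1.05, Chst11 at 0.504, Chst14 at 0.493 and Chst7 at 0.446. Heparan sulfotransferases had 2 higher and 1 lower of 14 (0.05), with Ndst4 at 2.35, Hs6st3 at 2.12, Hs3st1 at 0.863 and Ndst3 at 0.651. Other Golgi sulfotransferases had 1 higher and none lower of 8 (-0.07), Chst1 at 1.59, with Chst8 at 1.07, Tpst2 at 0.903 and Chst2 at 0.804.

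Cytosolic sulfotransferases over all nuclei had 1 higher and 2 lower of 7 (0.20), with Sult6b1 at 2.80, Sult1a1 at 1.26, Sult5a1 at 0.658 and Sult1c2 at 0.632. The PAP phosphatases Impad1 (1.01) and Bpnt1 (0.756) both lay between (-0.20). Sulfatases had 1 higher and none lower of 13 (0.02): Sulf1, whose product trims heparan sulfate outside the cell, was at 1.71, Arsg at 1.35, Arsb at 0.833, and Arsa at 3.07 CPM in nephrectomy and 3.84 CPM in sham nuclei. All genes had a median of 0.015 on this scale, with 9.41% higher and 10.7% lower.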

How the data were processed

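The deposited files hold UMI counts per gene and barcode, made by the authors with Cell Ranger, version 7.0.1 per the file headers and 7.1.0 on mm10 per the submitters' processing notes. Use of intronic reads and of strand is not given in the sources used here. Gene positions came from GENCODE M21 (GRCm38), and promoter windows from RefSeq (GRCm38.p6), where 5 of the 7 members matched.

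A barcode needed 200 genes, and no more than 10% of its UMIs could be mitochondrial: 112 nephrectomy and 109 sham barcodes failed. Scrublet's own threshold called 1 and 0 nuclei, so the highest 3% of scores per library and 2 clusters rich in them were removed, 143 and 139 nuclei. Clustering used 2000 variable genes without the sulfate lists, mitochondrial and ribosomal genes, 30 principal components, 15 neighbours and Leiden resolution 1. Clusters were named from markers of 24 types, needing at least 3 of them at 2-fold and in 5% of nuclei. The doublet rule, the naming rule and the splitting of mixed clusters were chosen after seeing the data. Classes with at least 30 nuclei per library were compared, without cluster 7, whose median depth was too low. Clusters left unnamed took 17.4% of nephrectomy and 21.2% of sham nuclei.

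UMIs were summed per class and library. Ratios have exact conditional binomial intervals, CPM Poisson intervals and shares Clopper-Pearson intervals, all at 95% and for counting error only. Thinning to 1000 UMIs left out 275 nephrectomy and 319 sham nuclei. Free RNA was estimated from other classes' markers and the library profile. Counts under 3 were set to 3 for list medians and calls. The ratios and intervals were run on simulated Poisson counts, the model that the intervals assume. That run checks the computation and says nothing of spread between nuclei or animals. With 1 library per group no test over animals was run. Members and lists were chosen with earlier results of these data known. Named genes were all members, the 2 highest and 2 lowest ratios of each list in proximal tubule and in all nuclei, and the 3 genes most like each member with at least 300 UMIs. Leading genes of clusters, the overlapping genes and Chst11 over all nuclei were named after their values were seen.

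Software was Python 3.11.15 with scanpy 1.11.5, leidenalg 0.10.2, scipy 1.17.1, pandas 2.3.3, matplotlib 3.10.9 and numpy 2.4.6, and R 4.3.3 and edgeR 4.0.16 for TMM factors.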

Additional observations from a re-analysis of the deposited data

Results flagged for a closer look

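Papss1 had a ratio of 1.33 in thick ascending limb and 0.633 in proximal tubule nuclei, with intervals on opposite sides of 1. The difference between the classes was not tested. Papss2 was at 1.42 in proximal tubule, 3.43 in intercalated and 0.445 in connecting tubule nuclei, likewise untested. The 44 nephrectomy and 6 sham UMIs in intercalated nuclei stood beside 44.9 and 7.81 from free RNA, and the 21 nephrectomy and 25 sham UMIs in connecting tubule nuclei beside 33.6 and 19.5.

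The shallow cluster 0, left out of the comparisons, had Slc13a1 at 2120 CPM in nephrectomy and 841.1 CPM in sham nuclei, a ratio of 2.52 (2.29 to 2.78). Papss2 in the same cluster was at 470.4 and 308.3 CPM, a ratio of 1.53. Its median nucleus had 1135 UMIs in the nephrectomy and 1070 UMIs in the sham library. The free RNA measure put 157.4% and 143.3% of its UMIs down to free RNA. It used proximal tubule markers, which cluster 0 itself carried, so it cannot separate free RNA from proximal tubule message here. Papss2 had 292 nephrectomy and 217 sham UMIs there, beside 274.5 and 221.3 by the same measure, with the same limit.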

How the results depend on the processing

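The Slc13a1 ratio in proximal tubule nuclei was 2.64 and stayed at 2.21 to 2.67 over 14 alternatives. It was 2.57 with TMM factors, 2.56 with equal weight per nucleus, 2.38 after thinning, 2.27 over shared clusters with equal weight and 2.21 without clusters 1 and 9. The last of these and the addition of cluster 0 were chosen after seeing the data. The count of members at least 1.5 times higher was 2 after thinning, where Slc35b2 reached 1.77 on few UMIs. The count at least 1.5 times lower was 0 over shared clusters, without clusters 1 and 9 and at a 2-fold threshold. Papss1 in proximal tubule ran from 0.579 to 0.751, and Papss2 from 1.36 to 1.43. Slc13a1 in distal convoluted tubule turned to 0.571 after thinning, on 8 nephrectomy and 9 sham UMIs. Its level there could not be told from background. Of 300 member ratios recomputed, 261 stayed within the counting interval, and 28 came to lie on the other side of 1. The ratio in distal convoluted tubule was the only one of these that had been past 1.5-fold. Slc13a1 in connecting tubule, 0.753, ran up to 2.65. Of 384 list counts and medians 71 moved, and 8 of 128 medians changed sign, among them that of the related transporters in proximal tubule, -0.17 after thinning. Slc26a2, Slc35b2 and classes under 100 nuclei are limited by depth. No paired analysis was possible because each group is 1 library, which also left no replicate to leave out.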
